A study of Mus musculus with 12 samples.

Results

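The 27 genes described here encode enzymes that build cholesterol, the proteins that control those enzymes through the transcription factor SREBP2, and proteins that move or esterify the finished sterol. They were chosen by name from the pathway, with earlier results of these data known. All 27 were among the 17090 genes of the deposited expression table and all 27 passed the filter on low values, which 12966 genes passed. The pathway holds further genes, and the 27 are not all of it. RNA was sequenced from primary keratinocytes of tail skin of K14-SmoM2 mice, isolated 5 weeks after tamoxifen. Such mice make SmoM2, an active form of the Hedgehog component Smoothened, in cells with keratin 14 promoter activity once tamoxifen is given, and serve as a model of basal cell carcinoma. The 12 libraries formed 4 groups of 3, with letters A, B and C as replicate names. The siControl cells received non-targeting small interfering RNA and the siYAP1+TAZ cells pools against the transcriptional coactivators YAP1 and TAZ, both at 8 pmol per cm2 with a lipid reagent. The Ad-GFP cells received adenovirus carrying green fluorescent protein and the Ad-TEADi cells adenovirus carrying an inhibitor of the TEAD factors, through which YAP1 and TAZ act on genes, both from a type 5 vector with a CMV promoter, at a multiplicity of infection of 25. All 4 groups carried the K14-SmoM2 genotype, grew in medium with 60 µM calcium, 10 ng/ml EGF and 10 µM of the kinase inhibitor Y-27632, and were harvested 48 h after treatment. Nothing in the labels ties the replicates to different mice or plates, so a p-value here speaks only of variation among libraries, possibly technical.

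Cholesterol is made from acetyl-CoA. The mevalonate arm yields isoprene units, which are joined to farnesyl diphosphate, then to squalene, closed into lanosterol and trimmed to cholesterol. When sterol in the endoplasmic reticulum runs low, SCAP carries SREBP2 to the Golgi, where it is cut, and its released part enters the nucleus and raises transcription of most enzymes of the pathway. INSIG proteins hold SCAP back when sterol is plentiful. In epidermis, cholesterol is a main lipid of the permeability barrier and is made in the keratinocytes themselves.

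Promoter windows show what these genes share in sequence. RefSeq windows on GRCm38.p6, running from 250 bases before to 50 after a transcription start, were found for 22 of the 27 genes, with 28 windows in all. No window was matched for Fdps, Fdft1, Sqle, Stard4 or Npc1. Both strands were searched for CCAAT (the box bound by NF-Y), for GGGCGG (the GC box), for TCACNCCAC (a core of the sterol regulatory element that SREBP binds) and for CATTCC (the core that TEAD binds). No motif contains another of them. CCAAT occurred in a window of 20 of the 22 genes and in 41.1% of all 27025 genes with windows. GGGCGG occurred in 21 of the 22, against 38.2% of all genes. TCACNCCAC was found for Hmgcs1 alone, against 1.44% of all genes. CATTCC was found for Npc2 alone, against 16.6% of all genes. A match is only a description of letters in a window of 300 bases.

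The windows of 5 genes are printed 5′ to 3′ on the strand of the gene, with all matches in capitals. Hmgcs1 is shown for its sterol element core, and Mvk because its window also holds the start of the neighbouring gene Mmab, on the opposite strand. Pmvk and Insig1 rose in both main comparisons, and Acat2 fell in both. Pmvk has 2 windows, of which the upstream one is shown, and the other 4 genes have 1 each. Their windows are at chr13:119690101-119690400, plus strand, for Hmgcs1; chr5:114444019-114444318, plus strand, for Mvk; chr3:89454291-89454590, plus strand, for Pmvk; chr5:28071162-28071461, plus strand, for Insig1; and chr17:12960676-12960975, minus strand, for Acat2.
Hmgcs1: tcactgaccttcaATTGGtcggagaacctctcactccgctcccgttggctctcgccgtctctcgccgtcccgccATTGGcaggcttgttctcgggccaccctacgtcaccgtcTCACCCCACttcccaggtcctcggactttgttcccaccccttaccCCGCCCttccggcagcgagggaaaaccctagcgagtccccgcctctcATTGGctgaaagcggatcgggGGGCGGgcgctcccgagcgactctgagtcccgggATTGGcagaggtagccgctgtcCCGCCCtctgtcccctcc
Mvk: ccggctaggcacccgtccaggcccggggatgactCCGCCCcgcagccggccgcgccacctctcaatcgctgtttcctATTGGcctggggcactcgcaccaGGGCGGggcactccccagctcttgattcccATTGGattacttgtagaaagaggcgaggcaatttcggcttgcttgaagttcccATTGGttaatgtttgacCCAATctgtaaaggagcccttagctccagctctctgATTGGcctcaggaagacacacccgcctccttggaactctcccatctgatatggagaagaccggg
Pmvk: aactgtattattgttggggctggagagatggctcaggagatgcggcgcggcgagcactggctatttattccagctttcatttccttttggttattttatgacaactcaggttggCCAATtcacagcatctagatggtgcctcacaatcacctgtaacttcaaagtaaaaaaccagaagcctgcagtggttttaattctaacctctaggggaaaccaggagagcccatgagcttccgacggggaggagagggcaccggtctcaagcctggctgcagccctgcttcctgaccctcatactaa
Insig1: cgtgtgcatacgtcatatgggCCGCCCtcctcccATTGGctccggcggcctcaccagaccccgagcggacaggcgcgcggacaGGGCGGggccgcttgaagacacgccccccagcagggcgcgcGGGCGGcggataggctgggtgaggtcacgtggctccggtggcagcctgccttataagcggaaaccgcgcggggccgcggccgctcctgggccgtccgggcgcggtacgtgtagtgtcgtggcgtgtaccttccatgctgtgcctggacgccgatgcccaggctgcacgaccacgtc
Acat2: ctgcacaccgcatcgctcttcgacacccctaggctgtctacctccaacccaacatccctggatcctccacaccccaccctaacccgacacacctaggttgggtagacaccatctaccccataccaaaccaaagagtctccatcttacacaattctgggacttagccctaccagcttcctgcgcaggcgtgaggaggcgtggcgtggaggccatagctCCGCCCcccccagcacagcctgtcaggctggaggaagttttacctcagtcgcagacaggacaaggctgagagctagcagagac
The Hmgcs1 window holds the element core at bases 114 to 122 of the 300, with 4 CCAAT and 3 GGGCGG matches around it. The Mvk window holds 5 CCAAT and 2 GGGCGG matches. The printed Pmvk window has 1 CCAAT and no GGGCGG. A second Pmvk window, at chr3:89459321-89459620 on the plus strand, holds no match of any of the 4 motifs and is not printed. The Insig1 window has 1 CCAAT and 3 GGGCGG matches, and the Acat2 window 1 GGGCGG and no CCAAT.

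Values are CPM, read counts relative to library size, scaled by the authors with the trimmed mean of M-values (TMM). If the smallest value of a library stood for a single read, the libraries would hold 20.04 to 29.1 M reads. Only 83.5% to 85.4% of low values lay near whole multiples of it, so these depths are uncertain. Of the targeted genes, Yap1 read 206, 196 and 187 CPM in siControl and 71.7, 62.5 and 67.1 in siYAP1+TAZ, and Wwtr1, which encodes TAZ, 56.5, 52.9 and 56.1 and 30.02, 26.1 and 28.1. Both were lower in all knockdown libraries. Ccn2, a target of TEAD, averaged 9.002 ± 1.58 CPM with siYAP1+TAZ beside 48.2 ± 3.19 with siControl, and 5.404 ± 0.467 with Ad-TEADi beside 65.3 ± 3.903 with Ad-GFP (SD, n = 3). The 5 keratinocyte markers summed to 32496 to 37784 CPM over the 12 libraries. Singly, 2 were higher and 2 lower with siYAP1+TAZ (-0.32 to 0.45), where 68.9% of all genes were called. With Ad-TEADi 3 were higher and 2 lower (-0.46 to 0.29), where 59.8% of all genes were called. The 4 markers of the spinous layer, such as Krt10, all rose in both comparisons. In the order siControl, siYAP1+TAZ, Ad-GFP, Ad-TEADi, their sum was 713 to 804, 5029 to 5826, 631 to 823 and 2318 to 2486 CPM. Of 7 sebocyte markers 3 had values, summing, in the same order of groups, to 7.72 to 8.62, 18.7 to 21.7, 5.57 to 7.44 and 18.98 to 19.5 CPM. Cidea rose in both comparisons (1.72 and 2.21), Krt79 was at -0.088 with siYAP1+TAZ, not passing, and fell with Ad-TEADi (-0.79), and Awat2 did not pass the filter. Of 6 immune markers 4 had values, summing, in the same order of groups, to 11.8 to 12.8, 40.1 to 41.3, 11.7 to 14.1 and 31.6 to 33.7 CPM, mostly Cd68. Cd68 rose (1.83 and 1.47), as did another of the 3 immune markers tested (0.46 and 0.79). Csf1r fell (-0.66 and -0.85), and Ptprc was below the filter. Fibroblast, melanocyte and endothelial markers summed to at most 13.5 CPM in any library. What part these cell types or states have in the results was not tested, and in bulk RNA fewer cells of a type and less RNA per cell cannot be told apart.

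Levels can be compared between genes only per kilobase of exon. On that scale, in all 4 groups, Hmgcs1 (HMG-CoA synthase) and Idi1 (the isomerase of isoprene units) ranked at the top of the 27 genes, with 126 and 111 CPM per kb in siControl. Soat1, which esterifies cholesterol for storage, and Tm7sf2, a sterol reductase, ranked at the bottom, with 3.997 and 4.51 CPM per kb in siControl. The other reductase of the same step, Lbr, which is also the lamin B receptor of the nuclear envelope, stood at 10.9 CPM per kb. Between the kinases of the mevalonate arm, Pmvk went from 23.1 to 34.9 CPM per kb with siYAP1+TAZ, while Mvk stood at 19.7 and 20.6. Lengths are all annotated exons of a gene joined, so the level of a gene with long unused exons is understated.

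**Figure D1:**
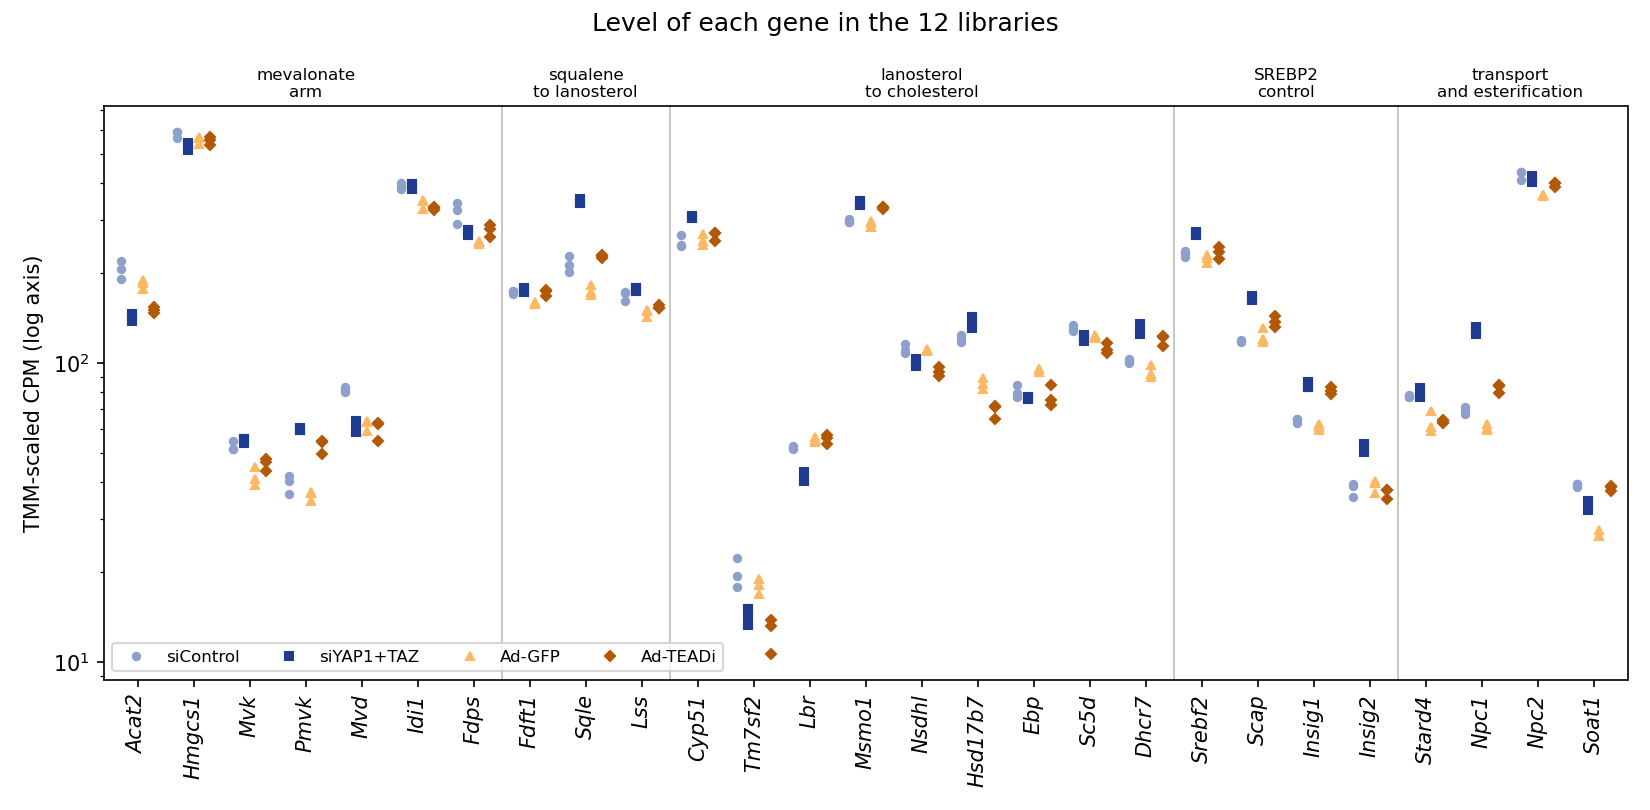
TMM-scaled CPM on a log axis for the 27 genes in pathway order, with the 3 libraries of each group as separate symbols and grey lines between roles. Libraries of a group lie close together beside the spread between genes, Sqle and Npc1 stand highest in siYAP1+TAZ, and Tm7sf2 is lowest in every group.

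Both main comparisons ask what loss of the YAP and TAZ programme, by knockdown or by the TEAD inhibitor, does to RNA in these cells. The cholesterol genes went in both directions in each. With siYAP1+TAZ 11 of the 27 genes were higher and 9 lower (limma on log2(CPM + 1), Benjamini-Hochberg adjusted p below 0.05), beside 68.9% of all genes tested called, 32.7% higher and 36.1% lower. With Ad-TEADi 12 were higher and 6 lower, beside 59.8% of all genes called, 33.5% higher and 26.3% lower. The median absolute log2 change of the 27 was 0.22 and 0.14, and that of all genes 0.27 and 0.21. Only Npc1, Sqle and Pmvk passed with at least a 1.5-fold change in the first comparison, where 21.8% of all genes did, 13.8% higher and 8.01% lower, and Pmvk only just (log2 change 0.59). That set turns with the scaling: with equal totals 1 gene, Npc1, was higher and 3, Acat2, Mvd and Tm7sf2, were lower at 1.5-fold, and under quantile normalization Npc1 was higher and Acat2 lower. In the second no gene of the 27 reached 1.5-fold, where 15.7% of all genes passed at that size, 8.34% higher and 7.37% lower. That is a count of 0 with limma, and it is 0 with an unadjusted p under 0.05 as well, since Pmvk, the largest of the rises and falls, was at 0.54. With equal totals 1 gene, Tm7sf2, was lower at that size, and without Ad-TEADi B 1 gene, Pmvk, was higher. The treated libraries lay wholly above their controls for 12 genes and wholly below for 10 with siYAP1+TAZ, as they did for 72.2% of all genes, 34.4% above and 37.8% below. With Ad-TEADi they did so for 12 above and 6 below, and for 64.0% of all genes, 35.5% above and 28.5% below.

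The counts lean on how libraries are scaled, so each direction is read with that in view. Column totals were 1017558 ± 1969 CPM in siYAP1+TAZ against 890008 ± 7845 in siControl. They were 924595 ± 12188 in Ad-TEADi against 864071 ± 7264 in Ad-GFP (SD, n = 3). Rescaling columns to equal totals takes out any factor per library, that of TMM included. It shifted the median of all genes by -0.17 and -0.089 on the log2 scale, to -0.20 and -0.057. The median of the 27 then stood at -0.16 and -0.032. The rescaling gave 7 of the 27 genes higher and 16 lower with siYAP1+TAZ, and 6 higher and 10 lower with Ad-TEADi. Of all 12966 genes tested, 7146 were then lower with siYAP1+TAZ, beside 4687 under the deposited scaling. Quantile normalization gave 7 and 15, and 6 and 10, with the median of all genes shifted by -0.062 and -0.037. The medians were then -0.093 and -0.0048 for all genes, and -0.13 and -0.069 for the 27. Counts of the 27 or of a role under another scaling are to be read beside these shifts of all genes. The percentages of all genes printed with the roles are those of the deposited scaling. Under all 19 alternatives, 5 genes stayed higher in both comparisons (Pmvk, Sqle, Dhcr7, Insig1 and Npc1), 3 stayed lower in both (Acat2, Tm7sf2 and Nsdhl), and Soat1 stayed lower in one and higher in the other. Leaving out a library of neither group compared cannot move the change itself, only its p-value. The share of all genes that kept their calls was not counted.

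**Figure D2:**
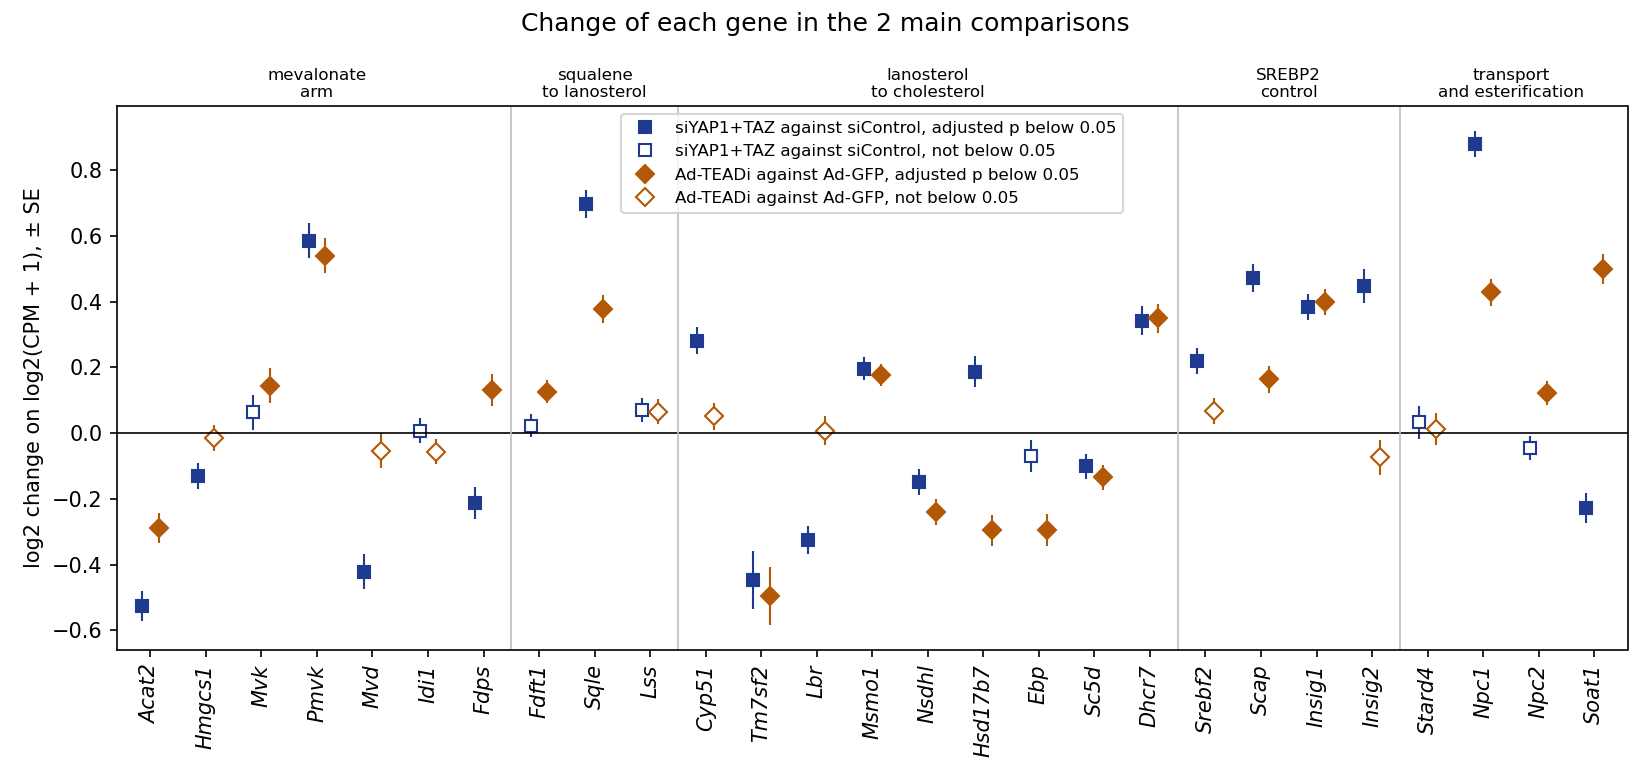
Log2 change on log2(CPM + 1) ± SE for the 27 genes in pathway order, siYAP1+TAZ against siControl in blue squares and Ad-TEADi against Ad-GFP in brown diamonds, filled where the adjusted p is below 0.05. Filled in both are Pmvk, Sqle, Msmo1, Dhcr7, Scap, Insig1 and Npc1 above 0 and Acat2, Tm7sf2, Nsdhl and Sc5d below 0. Fdps, Soat1 and Hsd17b7 are filled in both with opposite signs.

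Within the mevalonate arm Acat2 fell and Pmvk rose in both comparisons. Of its 7 genes 1 was higher and 4 lower with siYAP1+TAZ (1 and 6 with equal totals, 1 and 5 under quantile normalization). With Ad-TEADi 3 were higher and 1 lower (1 and 4 under both). Among all genes 32.7% were higher and 36.1% lower with siYAP1+TAZ, and 33.5% and 26.3% with Ad-TEADi. Acat2 (chromosome 17, 12942890 to 12960747), the cytosolic thiolase that joins acetyl-CoA units, read 219, 207 and 191 CPM in siControl A, B and C and 143, 138 and 146 CPM in siYAP1+TAZ (log2 change -0.53, SE 0.0455; limma, adjusted p = 3.25e-09). It read 185, 177 and 188 CPM in Ad-GFP and 154, 150.02 and 146 CPM in Ad-TEADi (log2 change -0.29, SE 0.0455; limma, adjusted p = 1.81e-05). Every treated library lay below every library of its control. Acat2 has a close copy in the mouse, Acat3, between which reads may have been split. Pmvk (chromosome 3, 89454541 to 89469013), phosphomevalonate kinase, read 40.4, 36.5 and 41.9 CPM in siControl and 60.5, 59.6 and 59.5 CPM in siYAP1+TAZ (log2 change 0.59, SE 0.05296; limma, adjusted p = 6.56e-09). In the virus groups it read 34.6, 37.2 and 36.7 CPM in Ad-GFP and 54.9, 49.8 and 54.6 CPM in Ad-TEADi (log2 change 0.54, SE 0.05296; limma, adjusted p = 3.22e-08). It rose in both without overlap of groups.

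The other genes of the arm changed less or in 1 comparison. Mvd, the decarboxylase that follows Pmvk, read 82.9, 81.4 and 79.7 CPM in siControl and 58.7, 59.1 and 63.8 CPM in siYAP1+TAZ (log2 change -0.42, SE 0.0525; limma, adjusted p = 6.72e-07). In Ad-GFP and Ad-TEADi its means were 62.3 ± 2.65 and 60.1 ± 4.59 CPM (SD, n = 3), groups that overlapped (log2 change -0.053, SE 0.0525; limma, adjusted p = 0.405). Under both other scalings Mvd passed as lower there too, down to -0.15. The ratio of Pmvk to Mvd within a library, which a factor common to all its genes does not change, went from 0.487 ± 0.0382 to 0.98997 ± 0.0502 and from 0.5803 ± 0.00367 to 0.887 ± 0.102, a pair chosen, like those of the ratios that follow, after its values were seen. Fdps, farnesyl diphosphate synthase, read 341, 323 and 292 CPM in siControl and 279, 266 and 277 CPM in siYAP1+TAZ, a fall (log2 change -0.21, SE 0.0484; limma, adjusted p = 0.000655). With Ad-TEADi it went the other way, from 256, 250.1 and 254 to 288, 281 and 264 CPM (log2 change 0.13, SE 0.0484; limma, adjusted p = 0.0259). That rise was lost without Ad-GFP B, Ad-TEADi A or Ad-TEADi B and under both other scalings, with its value at -0.012 under quantile normalization (limma, adjusted p up to 0.827). Hmgcs1, at 513 to 589 CPM over the 12 libraries, fell with siYAP1+TAZ (log2 change -0.13, SE 0.0398; limma, adjusted p = 0.00715) and was at -0.013 with Ad-TEADi (limma, adjusted p = 0.79; lower under both other scalings, down to -0.16). Idi1 passed in neither comparison under the deposited scaling (0.0075 and -0.056) and was lower in both under the other scalings, down to -0.19 and -0.18.

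Mvk and Mmab start 209 bases apart on opposite strands, inside the Mvk window printed above. Mvk encodes mevalonate kinase and Mmab an enzyme of cobalamin metabolism. Mvk was at 52.7 ± 1.93 CPM in siControl and 55.1 ± 1.03 in siYAP1+TAZ (log2 change 0.064, SE 0.0524; limma, adjusted p = 0.29), and at 41.6 ± 2.97 in Ad-GFP and 46.05 ± 2.33 in Ad-TEADi (log2 change 0.14, SE 0.0524; limma, adjusted p = 0.0227). Mmab fell in both, from 28.2, 27.6 and 30.8 to 20.6, 20.6 and 19.6 CPM (log2 change -0.49, SE 0.0534; limma, adjusted p = 1.06e-07) and from 27.02, 27.5 and 27.1 to 20.7, 19.7 and 20.8 CPM (log2 change -0.40, SE 0.0534; limma, adjusted p = 2.48e-06). The ratio of Mvk to Mmab within a library went from 1.83 ± 0.1402 to 2.72 ± 0.119 and from 1.53 ± 0.09601 to 2.26 ± 0.171 (SD, n = 3), with no overlap of groups in either. With equal totals Mvk passed as lower with siYAP1+TAZ (-0.13). The rise of Mvk itself with Ad-TEADi was lost without Ad-GFP A, Ad-GFP C, Ad-TEADi A or Ad-TEADi B and under both other scalings (limma, adjusted p up to 0.425). The pair was set side by side after its values were seen.

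Between farnesyl diphosphate and lanosterol, Sqle changed most. Of these 3 genes 1 was higher and 0 lower with siYAP1+TAZ (1 and 2 under both other scalings). With Ad-TEADi 2 were higher and 0 lower (1 and 0 under both). The shares of all genes were 32.7% higher and 36.1% lower with siYAP1+TAZ, and 33.5% and 26.3% with Ad-TEADi. Sqle (chromosome 15, 59315077 to 59331192), squalene monooxygenase, a slow step of the pathway, read 213, 202 and 228 CPM in siControl and 346, 353 and 342 CPM in siYAP1+TAZ (log2 change 0.70, SE 0.0425; limma, adjusted p = 1.53e-11). It read 173, 169 and 182 CPM in Ad-GFP and 229, 225 and 227 CPM in Ad-TEADi (log2 change 0.38, SE 0.0425; limma, adjusted p = 2.36e-07). All treated libraries lay above all of their controls, and the rise was larger with siYAP1+TAZ (difference of log2 changes 0.32; limma, adjusted p = 0.000209). The enzymes on either side had smaller values. Fdft1 (squalene synthase) was at 0.023 and 0.13 and Lss (lanosterol synthase) at 0.0703 and 0.065. Of these 4 values the 0.13 of Fdft1 passed (limma, adjusted p = 0.00386), and not under the other scalings. With siYAP1+TAZ both genes were lower under both other scalings, down to -0.18 for Fdft1 and -0.13 for Lss. Fdft1 shares 774 exon bases with Ctsb, a protein-coding gene on the opposite strand, so its value is uncertain. The strand setting of the counting was not given in the sources used here. Within a library the ratio of Sqle to Lss went from 1.27 ± 0.0524 to 1.97 ± 0.0369 and from 1.19 ± 0.0545 to 1.48 ± 0.033003.

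**Figure D3:**
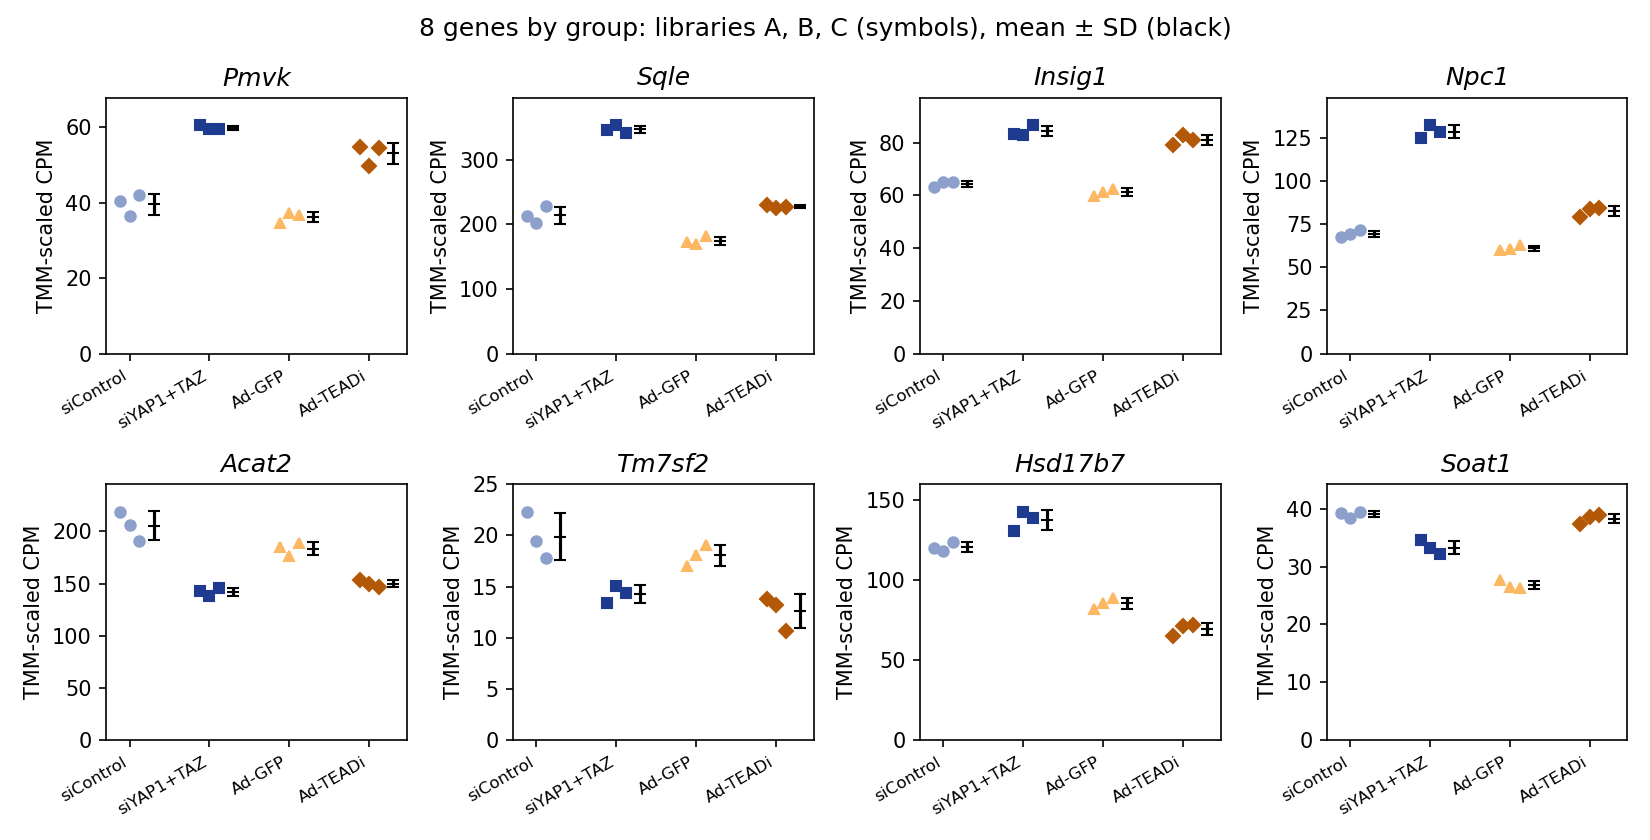
TMM-scaled CPM from 0 for 8 genes, with libraries A, B and C of each group as symbols and the mean ± SD in black. Treated libraries lie apart from their controls in every panel, upward for Pmvk, Sqle, Insig1 and Npc1 and downward for Acat2 and Tm7sf2, and Hsd17b7 and Soat1 go opposite ways in the siRNA and virus groups.

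The steps from lanosterol to cholesterol split, with 4 of 9 genes higher and 4 lower with siYAP1+TAZ (1 and 5 under both other scalings). With Ad-TEADi 2 were higher and 5 lower (1 and 5 under both). All genes split too, 32.7% higher and 36.1% lower with siYAP1+TAZ, and 33.5% and 26.3% with Ad-TEADi. Dhcr7 (chromosome 7, 143823145 to 143848410), the reductase that completes cholesterol and whose substrate is also the skin's source of vitamin D, read 103, 101 and 99.7 CPM in siControl and 125, 135 and 127 CPM in siYAP1+TAZ (log2 change 0.34, SE 0.0445; limma, adjusted p = 1.14e-06). It read 89.6, 98.7 and 92.2 CPM in Ad-GFP and 122, 123 and 114 CPM in Ad-TEADi (log2 change 0.35, SE 0.0445; limma, adjusted p = 1.26e-06). All treated libraries lay above their controls, and the difference between the rises was -0.0065 (SE 0.0629; limma, adjusted p = 0.942). Cyp51, the lanosterol demethylase, rose with siYAP1+TAZ from 253 ± 11.8 to 307 ± 1.69 CPM (log2 change 0.28, SE 0.0418; limma, adjusted p = 6.6e-06), a call lost under both other scalings, and was at 0.051 with Ad-TEADi. Msmo1, an oxidase that removes methyl groups, was at 0.20 and 0.18 and passed in both under the deposited scaling only. Sc5d, a desaturase, was at -0.10 and -0.13 and passed in both, the former not without siControl C or siYAP1+TAZ A (limma, adjusted p up to 0.0922).

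Both enzymes of one shared reduction, Tm7sf2 and Lbr, were lower with siYAP1+TAZ. Tm7sf2 (chromosome 19, 6062821 to 6068373) read 22.3, 19.5 and 17.8 CPM in siControl and 13.3, 15.02 and 14.4 CPM in siYAP1+TAZ (log2 change -0.45, SE 0.08803; limma, adjusted p = 0.000161). It read 16.97, 18.1 and 19.06 CPM in Ad-GFP and 13.8, 13.2 and 10.7 CPM in Ad-TEADi (log2 change -0.50, SE 0.08803; limma, adjusted p = 7.33e-05). It shares 532 exon bases with Vps51 on the same strand, so its value is uncertain. Lbr fell with siYAP1+TAZ from 51.8, 52.9 and 51.7 to 43.4, 40.3 and 40.6 CPM (log2 change -0.32, SE 0.04397; limma, adjusted p = 2.01e-06) and was at 0.0073 with Ad-TEADi (limma, adjusted p = 0.898). The ratio of Tm7sf2 to Lbr stood at 0.381 ± 0.0446 and 0.345 ± 0.0335 in the siRNA groups, which overlapped, and went from 0.325 ± 0.0227 to 0.226 ± 0.0344 with Ad-TEADi, which did not. Nsdhl, a dehydrogenase of methyl removal, went from 111 ± 3.62 to 100.2 ± 2.42 CPM (log2 change -0.15, SE 0.0388; limma, adjusted p = 0.00224) and from 111 ± 0.695 to 93.6 ± 3.06 CPM (log2 change -0.24, SE 0.0388; limma, adjusted p = 2.64e-05). Ebp, a sterol isomerase, was at -0.069 with siYAP1+TAZ (limma, adjusted p = 0.221; lower under both other scalings, down to -0.26) and fell with Ad-TEADi from 95.6, 95.1 and 93.4 to 84.3, 72.4 and 75.02 CPM (log2 change -0.29, SE 0.0492; limma, adjusted p = 3.76e-05).

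Hsd17b7, the reductase that acts with Nsdhl, differed most between the perturbations among the enzymes of cholesterol synthesis. It read 119.9, 118 and 124 CPM in siControl and 130.5, 143 and 139 CPM in siYAP1+TAZ (log2 change 0.19, SE 0.0468; limma, adjusted p = 0.00153). It read 82.1, 85.3 and 88.9 CPM in Ad-GFP and 65.01, 71.4 and 71.9 CPM in Ad-TEADi (log2 change -0.30, SE 0.0468; limma, adjusted p = 1.98e-05). The groups did not overlap in either comparison. The fall with Ad-TEADi was kept under all alternatives, whereas with siYAP1+TAZ the value was -0.0043 with equal totals and -0.021 under quantile normalization. The difference between the effects was 0.48 (SE 0.0662; limma, adjusted p = 6.94e-06) and passed under all alternatives.

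Of the genes that control SREBP2, 4 of 4 were higher with siYAP1+TAZ (3 of 4 under both other scalings, without Srebf2), where 32.7% of all genes were. With Ad-TEADi 2 of 4 were higher (under both other scalings 1 of 4, with Insig2 lower), where 33.5% of all genes were. Insig1 (chromosome 5, 28071363 to 28078662), itself a target of SREBP2 that retains SCAP, read 63.2, 64.9 and 64.9 CPM in siControl and 83.4, 82.9 and 86.5 CPM in siYAP1+TAZ (log2 change 0.38, SE 0.03896; limma, adjusted p = 3.65e-08). It read 59.6, 61.3 and 62.5 CPM in Ad-GFP and 78.9, 82.9 and 80.8 CPM in Ad-TEADi (log2 change 0.40, SE 0.03896; limma, adjusted p = 3.15e-08). No group overlapped its control, and the difference between the rises was -0.015 (SE 0.0551; limma, adjusted p = 0.847). Its paralogue Insig2, which is not driven by SREBP2 in the same way, read 38.8, 39.5 and 35.6 CPM in siControl and 52.2, 53.7 and 50.5 CPM in siYAP1+TAZ (log2 change 0.45, SE 0.0521; limma, adjusted p = 2.5e-07). With virus it read 39.6, 36.7 and 40.3 CPM for Ad-GFP, then 37.7, 35.2 and 37.7 CPM for Ad-TEADi (log2 change -0.074, SE 0.0521; limma, adjusted p = 0.233). Insig2 thus rose with the knockdown, and its virus groups overlapped (difference 0.52; limma, adjusted p = 9.71e-06). With Ad-TEADi it passed as lower under both other scalings, down to -0.17.

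The ratio of Insig1 to Insig2 stood at 1.698 ± 0.1103 in siControl and 1.62 ± 0.08702 in siYAP1+TAZ, which overlapped, and went without overlap from 1.58 ± 0.0867 in Ad-GFP to 2.198 ± 0.138 in Ad-TEADi (SD, n = 3). Scap (chromosome 9, 110333288 to 110384950), the escort of SREBP2, read 118, 119 and 118 CPM in siControl and 167, 164 and 163 CPM in siYAP1+TAZ (log2 change 0.47, SE 0.0423; limma, adjusted p = 5.86e-09). It read 118, 131 and 119.99 CPM in Ad-GFP and 144, 137 and 132 CPM in Ad-TEADi (log2 change 0.16, SE 0.0423; limma, adjusted p = 0.00252), a call lost under both other scalings. The rise of Scap was larger with the knockdown (difference 0.31; limma, adjusted p = 0.00028). Srebf2, which encodes SREBP2, went from 232 ± 5.34 to 270.03 ± 2.61 CPM (log2 change 0.22, SE 0.0397; limma, adjusted p = 6.52e-05), a call lost under both other scalings. With Ad-TEADi it was at 0.068 (limma, adjusted p = 0.15) and passed as higher without Ad-TEADi C. RNA of these genes does not show how much SREBP2 protein was cut.

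Among transport and esterification genes stood the largest rise of the 27 with siYAP1+TAZ, that of Npc1. Of these 4 genes 1 was higher and 1 lower with siYAP1+TAZ (1 and 3 under both other scalings). With Ad-TEADi 3 were higher and 0 lower (2 and 0 under both). Among all genes 32.7% were higher and 36.1% lower with siYAP1+TAZ, and 33.5% and 26.3% with Ad-TEADi. Npc1 (chromosome 18, 12189692 to 12236400), the membrane protein that releases cholesterol from lysosomes, read 67.7, 69.03 and 71.3 CPM in siControl and 125, 132 and 128 CPM in siYAP1+TAZ (log2 change 0.88, SE 0.0405; limma, adjusted p = 1.75e-13). It read 59.8, 60.6 and 62.6 CPM in Ad-GFP and 79.3, 83.8 and 84.3 CPM in Ad-TEADi (log2 change 0.43, SE 0.0405; limma, adjusted p = 1.94e-08). It rose in both, more with the knockdown (difference 0.45; limma, adjusted p = 2.77e-06). Npc2, the soluble protein that hands cholesterol to NPC1, was at 426 ± 14.9 CPM in siControl and 413 ± 9.57 CPM in siYAP1+TAZ (log2 change -0.045, SE 0.0368; limma, adjusted p = 0.287), and lower under both other scalings, down to -0.24. With Ad-TEADi it was at 0.12 (limma, adjusted p = 0.00706), lost under both other scalings. The ratio of Npc1 to Npc2 within a library went from 0.163 ± 0.00996 to 0.311 ± 0.00959 and from 0.168 ± 0.00332 to 0.209 ± 0.00947. The groups did not overlap in either. Npc1 shares 511 exon bases with Rmc1 on the opposite strand, and Fdps 1124 with Gm43738 on its own strand. Cyp51 shares 166 with Akap9 and Lbr 440 with Dnah14, both on the opposite strand. Scap shares 985 with 5830462I19Rik, Hmgcs1 557 with Gm48342, Lss 381 with 4930483K19Rik and Idi1 323 with Gm48574, all on the opposite strand, so these values are uncertain too. Stard4, a carrier of cholesterol in the cytosol and a target of SREBP2, was at 0.033 and 0.014 and passed in neither under the deposited scaling. With siYAP1+TAZ it was lower under both other scalings, down to -0.16.

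Soat1 (chromosome 1, 156424525 to 156474331), which makes cholesteryl esters, was the gene whose directions were opposite under all alternatives. It read 39.4, 38.5 and 39.5 CPM in siControl and 34.6, 33.2 and 32.2 CPM in siYAP1+TAZ (log2 change -0.23, SE 0.0459; limma, adjusted p = 0.000214). It read 27.6, 26.4 and 26.3 CPM in Ad-GFP and 37.4, 38.6 and 38.9 CPM in Ad-TEADi (log2 change 0.50, SE 0.0459; limma, adjusted p = 1.23e-08). The difference of the effects was -0.73 (SE 0.0649; limma, adjusted p = 3.22e-08). Its level was lowest in all Ad-GFP libraries, and the Ad-TEADi and siControl libraries overlapped.

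Between the perturbations 14 of the 27 genes differed in effect, 8 with a higher and 6 with a lower value for siYAP1+TAZ (limma, adjusted p below 0.05), where 51.5% of all genes did, 25.1% higher and 26.4% lower. With equal totals 5 were higher and 9 lower, and under quantile normalization 7 and 8. At 1.5-fold 1 gene, Soat1, differed, and it was lower, where 13.9% of all genes did, 9.32% higher and 4.59% lower. Called in both comparisons were 7 genes higher in both, 4 lower in both and 3 with opposite calls (Fdps, Soat1 and Hsd17b7). Over all genes the same patterns held 20.7%, 17.6% and 7.60%. The comparisons have separate control libraries.

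**Figure D4:**
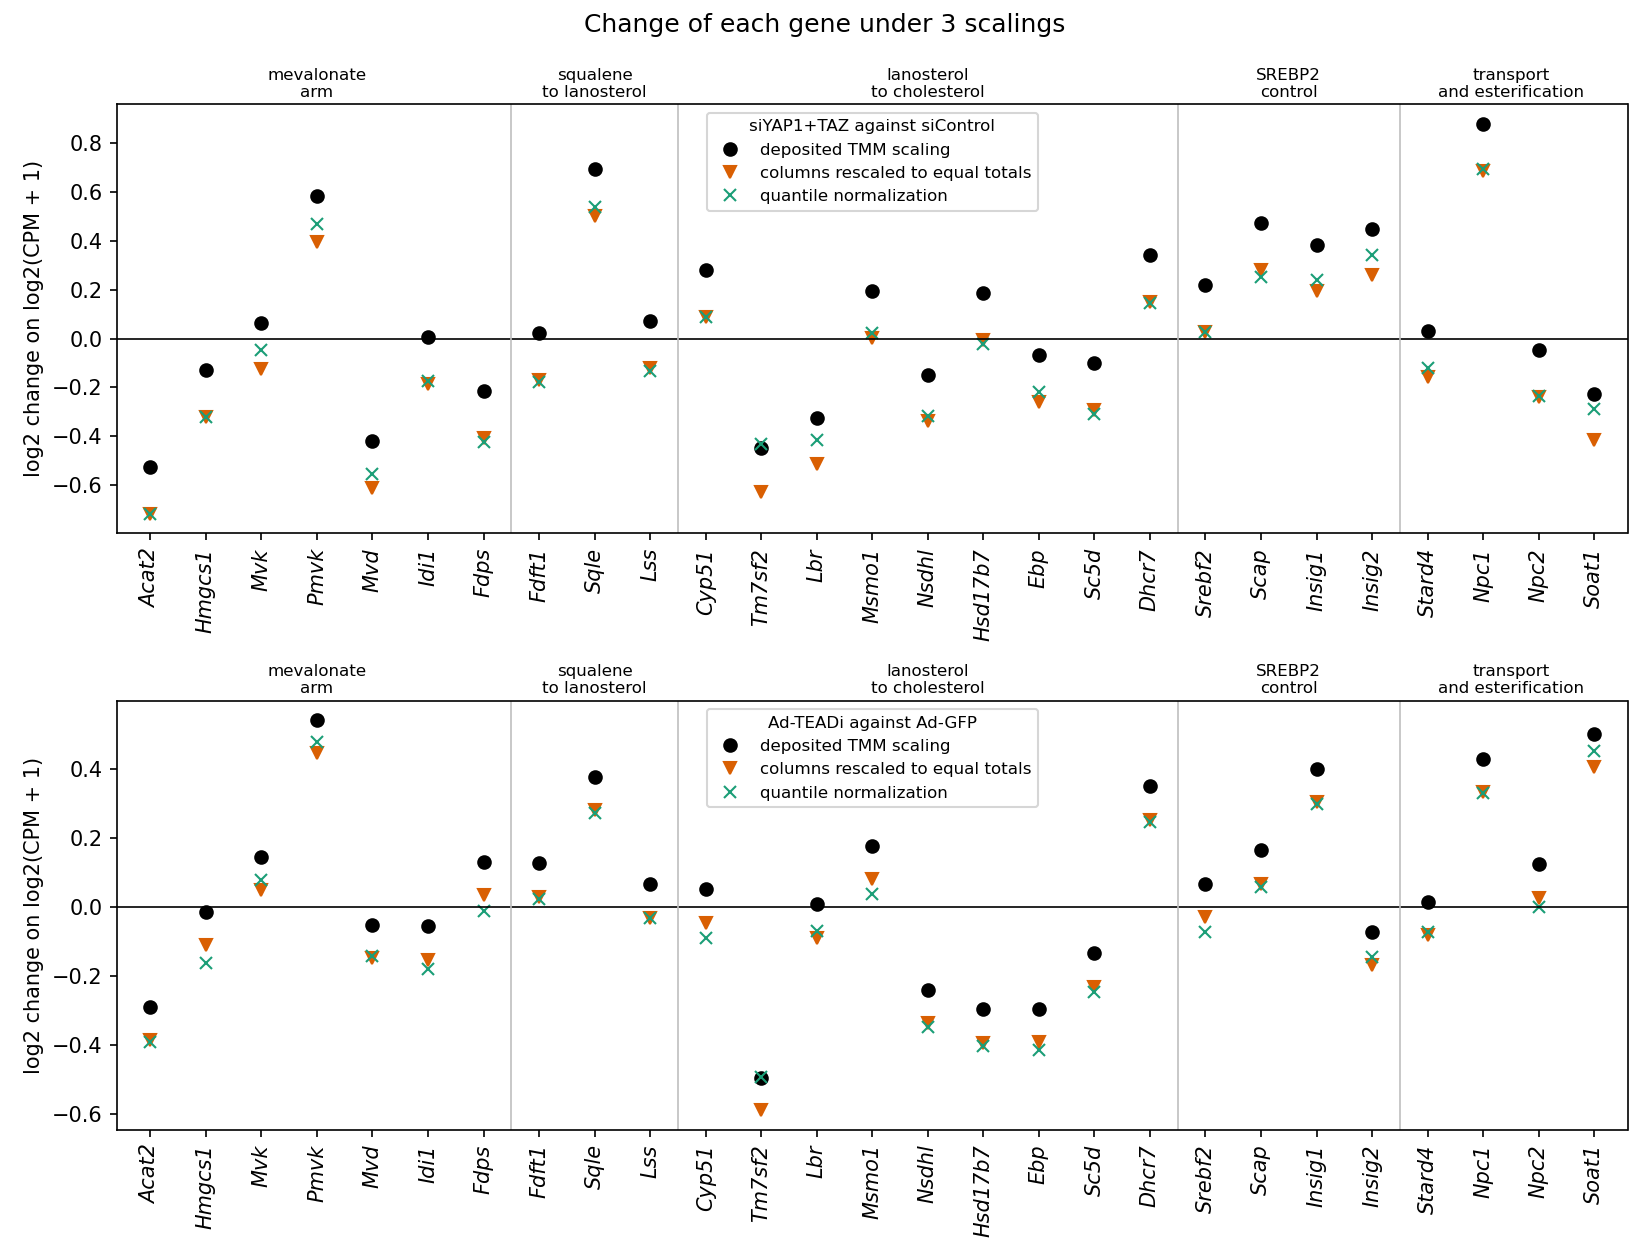
Log2 change of the 27 genes under the deposited TMM scaling (black circles), with columns rescaled to equal totals (orange triangles) and with quantile normalization (green crosses), siYAP1+TAZ against siControl above and Ad-TEADi against Ad-GFP below. Both other scalings lower most values, so genes near 0 cross it, such as Idi1, Fdft1, Lss and Stard4 in the upper panel, while Pmvk, Sqle, Insig1 and Npc1 stay above 0 in both.

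The controls differed as well. In Ad-GFP against siControl 14 of the 27 genes were lower and 1, Ebp, was higher (limma, adjusted p below 0.05), beside 40.4% of all genes called, 21.8% lower and 18.7% higher. By the same test 13 were lower and 2 higher with equal totals, and 11 and 2 under quantile normalization. At 1.5-fold 0 of the 27 passed, also at an unadjusted p under 0.05, where 5.14% of all genes did, 2.43% higher and 2.71% lower. The Ad-GFP libraries lay wholly above those of siControl for 2 genes and wholly below for 16, as they did for 49.7% of all genes, 23.5% above and 26.2% below. These groups differ in both the agent and its delivery, which cannot be told apart, and they share libraries with the main comparisons. The median log2 change of the 27 was -0.13, and that of all genes -0.011. By role, 5 of 7 mevalonate arm genes, 3 of 3 from squalene to lanosterol and 4 of 4 transport genes were lower (4, 2 and 4 under quantile normalization). From lanosterol to cholesterol 2 of 9 were lower and 1 higher (1 lower and 2 higher under both other scalings). Of the genes that control SREBP2 0 of 4 passed (limma, and 0 of 4 at an unadjusted p under 0.05), with values from -0.073 to 0.051. The largest falls were those of Soat1 (log2 change -0.53, SE 0.0459; limma, adjusted p = 2.81e-08) and Hsd17b7 (log2 change -0.49, SE 0.0468; limma, adjusted p = 1.05e-07). They were followed by Mvd (-0.38), Mvk (-0.34) and Fdps (-0.33). Ebp rose (log2 change 0.24, SE 0.0492; limma, adjusted p = 0.000729). Of the falls, that of Acat2 was lost under quantile normalization and without siControl A, and that of Fdft1 under quantile normalization. That of Dhcr7 was lost under both other scalings and without siControl A, siControl B, siYAP1+TAZ C, Ad-GFP A or Ad-GFP C. All 3 Ad-GFP libraries of Soat1, Hsd17b7, Mvd, Mvk and Fdps lay below all 3 siControl libraries.

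**Figure D5:**
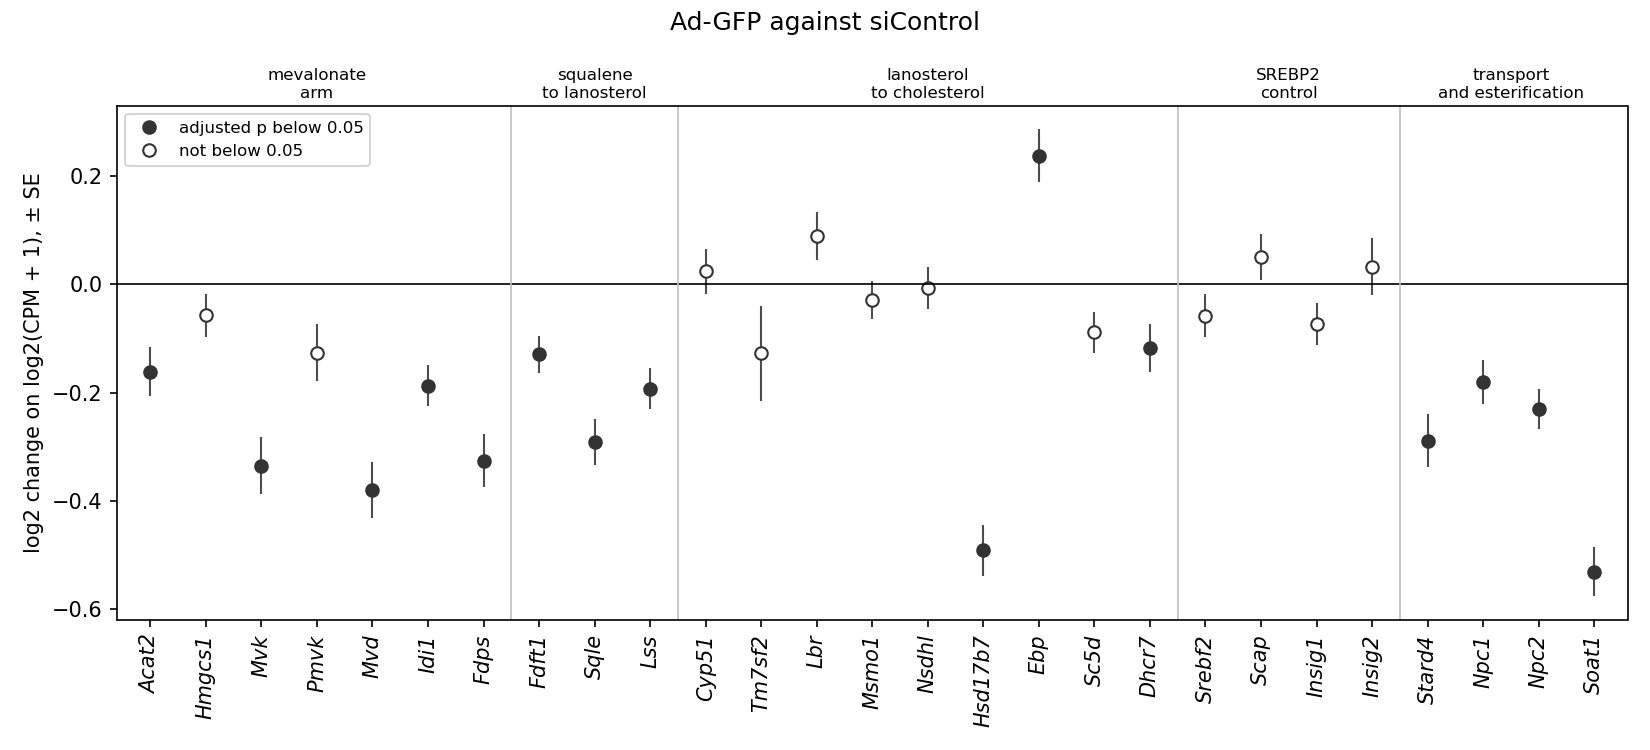
Log2 change on log2(CPM + 1) ± SE of the 27 genes in Ad-GFP against siControl, filled where the adjusted p is below 0.05. Most filled points lie below 0, with Soat1 and Hsd17b7 lowest and Ebp alone above 0.

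Genes of neighbouring lipid pathways were counted from lists, and those that passed with at least 1.5-fold at 10 CPM or more are named, with log2 changes for siYAP1+TAZ and then Ad-TEADi (limma, adjusted p below 0.05 unless stated). Over all genes 32.7% were higher and 36.1% lower with siYAP1+TAZ, and 33.5% and 26.3% with Ad-TEADi. In fatty acid synthesis under SREBP1, 4 higher and 5 lower of 15 passed with siYAP1+TAZ (1 and 9 with equal totals and under quantile normalization) and 5 higher and 7 lower of 15 with Ad-TEADi (2 and 7 in both). The desaturase genes Fads1 and Fads2 fell in both, Fads2 from 148 ± 3.12 to 63.5 ± 4.697 CPM and from 186 ± 5.08 to 98.4 ± 5.39 CPM (log2 changes -1.21 and -0.91). Fads1 was at -1.12 and -1.08. Me1, a source of NADPH, rose (1.16 and 0.79), and Lpin1, a phosphatidate phosphatase, fell (-0.29 and -0.73). Por, which hands electrons to CYP51 and SQLE, rose from 91.1 ± 6.35 to 172 ± 8.15 CPM and from 72.98 ± 0.853 to 114 ± 9.77 CPM (0.91 and 0.63). It stood in a list of further sterol genes with 1 higher and 7 lower of 10 and 3 higher and 2 lower of 10 (1 and 8, and 3 and 5, under both other scalings).

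Of the genes for SREBP processing and membrane protein degradation, 3 higher and 6 lower of 12 passed with siYAP1+TAZ and 5 higher and 5 lower of 12 with Ad-TEADi. With equal totals those counts were 2 and 9, and 2 and 6; under quantile normalization 2 and 8, and 3 and 6. Erlin1, a protein of the endoplasmic reticulum that restrains SREBP, rose (0.85 and 0.80), as did Tmem41b (0.39 and 0.59). Erlin2, of the same list and short of 1.5-fold, went the other way. It went from 132 ± 3.56 to 92.1 ± 2.50 CPM with siYAP1+TAZ and from 127 ± 3.10 to 91.2 ± 3.31 CPM with Ad-TEADi. In the nonsterol isoprenoid branches, for dolichol, coenzyme Q and prenylation, the counts were 3 higher and 4 lower of 15 and 6 higher and 1 lower of 15 (2 and 10, and 4 and 4, with equal totals; 2 and 5, and 6 and 4, under quantile normalization). In oxysterol, LXR and efflux genes they were 7 higher and 0 lower of 10 and 3 higher and 4 lower of 10 (7 and 1, and 3 and 4, with equal totals; 7 and 0, and 3 and 4, under quantile normalization). Sult2b1, which makes cholesterol sulfate in upper epidermis, rose from 47.1 ± 4.07 to 179 ± 3.68 CPM and from 29.9 ± 2.79 to 105 ± 6.44 CPM (1.91 and 1.77). The sterol exporter gene Abcg1 rose (2.06 and 1.11), Apoe rose with siYAP1+TAZ and fell with Ad-TEADi (3.74 and -0.46), and Hsd3b7, an enzyme of bile acid synthesis, fell with Ad-TEADi (-0.97) and did not pass with siYAP1+TAZ (0.13; adjusted p = 0.13, though it passed without siControl B). In other cholesterol transport and storage genes the counts were 9 higher and 3 lower of 14 and 6 higher and 4 lower of 14 (5 and 5, and 4 and 5, with equal totals; 7 and 3, and 4 and 5, under quantile normalization). Lipe, a lipase that also cleaves cholesteryl esters (1.64 and 1.07), the oxysterol-binding protein genes Osbpl2 (1.24 and 0.82) and Osbpl1a (1.15 and 0.25) and the lysosomal membrane gene Scarb2 (0.74 and 0.17) rose. For Scarb2 with Ad-TEADi the call was lost under both other scalings.

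The authors' deposited table of comparisons made the same calls for all 27 genes, at their step-up adjusted p below 0.05. These were 11 higher and 9 lower for siYAP1+TAZ, where it called 67.6% of all genes. For Ad-TEADi they were 12 higher and 6 lower, where it called 58.4% of all genes. In the authors' deposited table the linear ratio of Npc1 was 1.85 for siYAP1+TAZ and 1.35 for Ad-TEADi, and that of Soat1 0.851 and 1.43.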

How the data were processed

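Poly(A) RNA libraries of 12 keratinocyte samples were analysed from the deposited tables. Per the submitters' processing notes, cutadapt 1.18, STAR 2.7.0f and Partek 8.0.19.0819 were used with mm10; the counting rule was not given in the sources used here. The authors deposited TMM-scaled CPM for 17090 genes, and, in a second table, the linear ratio, p-value and adjusted p-value of their own comparisons. Between 83.5% and 85.4% of low CPM values stood within 0.1 read of whole multiples of the smallest, too few to recover reads, so no count model was used.

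The 12966 genes that reached 1 CPM in 3 or more of 12 libraries were fitted with limma 3.58.1 in R 4.3.3 (eBayes with trend) on log2(CPM + 1), a pseudocount of 1 CPM that understates changes of low genes, with a mean per group over all 12 libraries. Tests were two-sided, adjusted by Benjamini-Hochberg over all genes tested. The code was tested on simulated data. Alternatives were a pseudocount of 0.1 CPM, no filter or one of 5 CPM, equal column totals, quantile normalization, only the groups compared, the replicate letter as a block, and each library left out in turn. Gene positions are on mm10, exon lengths and overlaps from GENCODE vM21, whose start and end equalled the deposited ones (less 1 at the end) for all 27 genes. Named genes outside the 27 passed with at least 1.5-fold in a comparison at a mean of at least 10 CPM, at most 5 per list. Values are also given for Mmab, Erlin2, Ccn2, the targeted genes and cell type markers. The members and lists were chosen with earlier results of these data known.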

Additional observations from a re-analysis of the deposited data

Results flagged for a closer look

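For 14 of the 27 genes the effect of siYAP1+TAZ differed from that of Ad-TEADi by a test of the difference itself (limma, adjusted p below 0.05). The same test passed for 51.5% of all genes, so this count is near the share over all genes. The difference of log2 changes, siYAP1+TAZ minus Ad-TEADi, was above 0 for Insig2 (0.52), Hsd17b7 (0.48), Npc1 (0.45), Sqle (0.32), Scap (0.31), Cyp51 (0.23), Ebp (0.22) and Srebf2 (0.15). It was below 0 for Soat1 (-0.73), Mvd (-0.37), Fdps (-0.34), Lbr (-0.33), Acat2 (-0.24) and Npc2 (-0.17). With equal totals the differences of Cyp51, Ebp and Srebf2 did not pass (adjusted p up to 0.0648, 0.111 and 0.383 over all alternatives). That of Srebf2 also did not pass under quantile normalization or without siControl B, siYAP1+TAZ A, siYAP1+TAZ C, Ad-GFP B, Ad-GFP C or Ad-TEADi C. The perturbations also differ in agent and delivery, and what part that has was not tested.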

How the results depend on the processing

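Of the calls above, 15 of 20 with siYAP1+TAZ, 12 of 18 with Ad-TEADi and 12 of 15 in Ad-GFP against siControl were kept under all 19 alternatives, as were 11 of the 14 differences under 18. How large a share of all genes kept their calls was not counted, so these counts have no background. With columns rescaled to equal totals, members higher and lower numbered 7 and 16 with siYAP1+TAZ (1 and 3 at 1.5-fold), 6 and 10 with Ad-TEADi (1 lower at 1.5-fold), 5 and 9 for the difference and 2 higher in Ad-GFP; all genes lower numbered 7146 with siYAP1+TAZ (1960 at 1.5-fold) and 897 for the difference at 1.5-fold. Quantile normalization gave 7 and 15 with siYAP1+TAZ (1 and 1 at 1.5-fold), 6 and 10 with Ad-TEADi and 2 higher in Ad-GFP. A pseudocount of 0.1 CPM gave 481 genes at least 1.5-fold higher in Ad-GFP against siControl. With siYAP1+TAZ and equal totals the sign turned for Mvk (-0.13), Idi1 (-0.19), Fdft1 (-0.17), Lss (-0.12), Hsd17b7 (-0.0043) and Stard4 (-0.16), and under quantile normalization for Idi1 (-0.17), Fdft1 (-0.18), Lss (-0.13), Hsd17b7 (-0.021) and Stard4 (-0.12). With Ad-TEADi it turned under quantile normalization for Fdps (-0.012) and Npc2 (-0.00056). A turn of sign was not counted where a gene passed in neither setting. Leaving out 1 library at a time, 0 to 1 members were at least 1.5-fold higher with Ad-TEADi, the 1 without Ad-TEADi B being Pmvk. Same-lettered libraries correlated at -0.034 to 0.16 in their deviations from group means, so the letters were not taken as pairs; with the replicate block members numbered 11 and 9, 12 and 6, and 1 and 14. Depth limits only low genes, and the members lay at 10.7 CPM or more.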
